A study of Sus scrofa with 18 samples.

Results

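The complement genes described here are 10 genes of the deposited count table, taken by gene name: the secreted proteins C1R, C1S, C2, C3, CFB and SERPING1, and the surface proteins CD46, CD55, C3AR1 and C5AR1. Each name matched 1 of the 30686 rows of the table, and all 10 were among the 13592 genes that passed the filter on low counts. RNA was sequenced from alveolar macrophages, which patrol the air sacs of the lung, of healthy Danish Landrace-Yorkshire pigs, in 18 libraries. The cells were exposed in culture for 24 hours to no addition (control), to poly I:C, to Bacillus subtilis, to Enterococcus faecium, or to poly I:C together with either bacterium, with 3 libraries per treatment numbered as pigs 1 to 3. Poly I:C, a man-made double-stranded RNA, stands in for a virus, and the bacteria are gram-positive and are given as probiotics.

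Complement is a cascade of plasma and tissue proteins that marks particles for uptake and releases inflammatory peptides. In the classical pathway the protease C1R activates C1S, which cuts C4 and C2. In the alternative pathway factor B (CFB) supplies the protease, and both routes end in the cleavage of C3. The liver makes most of the circulating proteins, and macrophages make part of the supply in tissues. SERPING1 (C1 inhibitor) blocks C1R and C1S, CD46 and CD55 protect the host cell that carries them, and C3AR1 and C5AR1 are the receptors of the peptides C3a and C5a.

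The libraries held 16.3 to 27.3 M counts, and levels are given as CPM, the counts of a gene per 1 M counts of its library after TMM scaling, with mean ± SD over 3 libraries where a mean is given. The libraries fall into 3 sets, called A, B and C here, each with 1 library per treatment, whose deviations from the treatment means go together. The sets were found from 13555 genes that include none of the complement genes, and they differ from the pig numbers: 8 libraries carry another number than the control library of their set. Pairs of libraries within a set correlated by 0.412 to 0.796, whereas pairs with the same pig number correlated by -0.527 to 0.739. The sets were chosen for the highest such correlation, so that this difference is no test of them. Adjusted p-values with the sets as a block rest on a grouping taken from the same libraries and can be too small. Values of 3 libraries are listed in the order of sets A, B and C, and for the 10 genes results are given with and without the sets as a block where the block changes the call. All 10 alveolar macrophage markers examined, among them MARCO, CD163 and PPARG, were detected, but FABP4 only at 0.827 to 5.86 CPM. The markers of T, NK and B cells summed to 328 to 442 CPM in control, most of it NKG7 (195 to 476 CPM over all libraries). Of the markers of endothelium and fibroblasts, cells known to make C1R, C1S and C3, the summed level was at most 2.47 CPM in any library, and CDH5 was at 0 in all of them. Of the epithelial markers EPCAM reached 389 CPM, whereas the surfactant genes SFTPA1, SFTPB and SFTPC stayed at or below 1.23 CPM. In these bulk samples fewer cells of a type and less RNA per cell cannot be told apart.

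The first comparison, poly I:C against control, shows double-stranded RNA on its own. The transcripts of all 6 secreted proteins rose, by 0.93 log2 units for C3 up to 3.49 for C1R. At the cell surface both protective proteins fell, CD46 by 1.32 and CD55 by 1.96 log2 units. The receptors parted: C3AR1 rose by 4.17 log2 units, an 18-fold change, and C5AR1 fell by 2.59 log2 units. All 10 members passed an adjusted p of 0.05 (edgeR's quasi-likelihood test, Benjamini-Hochberg over all genes), where 22.5% of all genes tested did, 12.9% upward and 9.55% downward. The median change was 2.14 log2 units over the secreted and -1.64 over the surface members, against -0.01 over all genes tested. The members were chosen with earlier results of these data known. Setting their counts or medians against all genes, here and below, is thus no test of the group. The monocyte and dendritic cell markers were higher with poly I:C as well: their summed level was 191 to 480 CPM in control and 538 to 1420 CPM with poly I:C, most of it CD14, 1 of 6 tested passed upward, and their part in the results was not tested. The alveolar macrophage markers summed to 1890 to 2630 CPM in control and 2540 to 3270 CPM with poly I:C, with 2 of 10 passing upward. Within this list SIGLEC1 had the widest span, 83.5 to 908 CPM over all libraries, and its part in the sum was not tested.

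**Figure D1:**
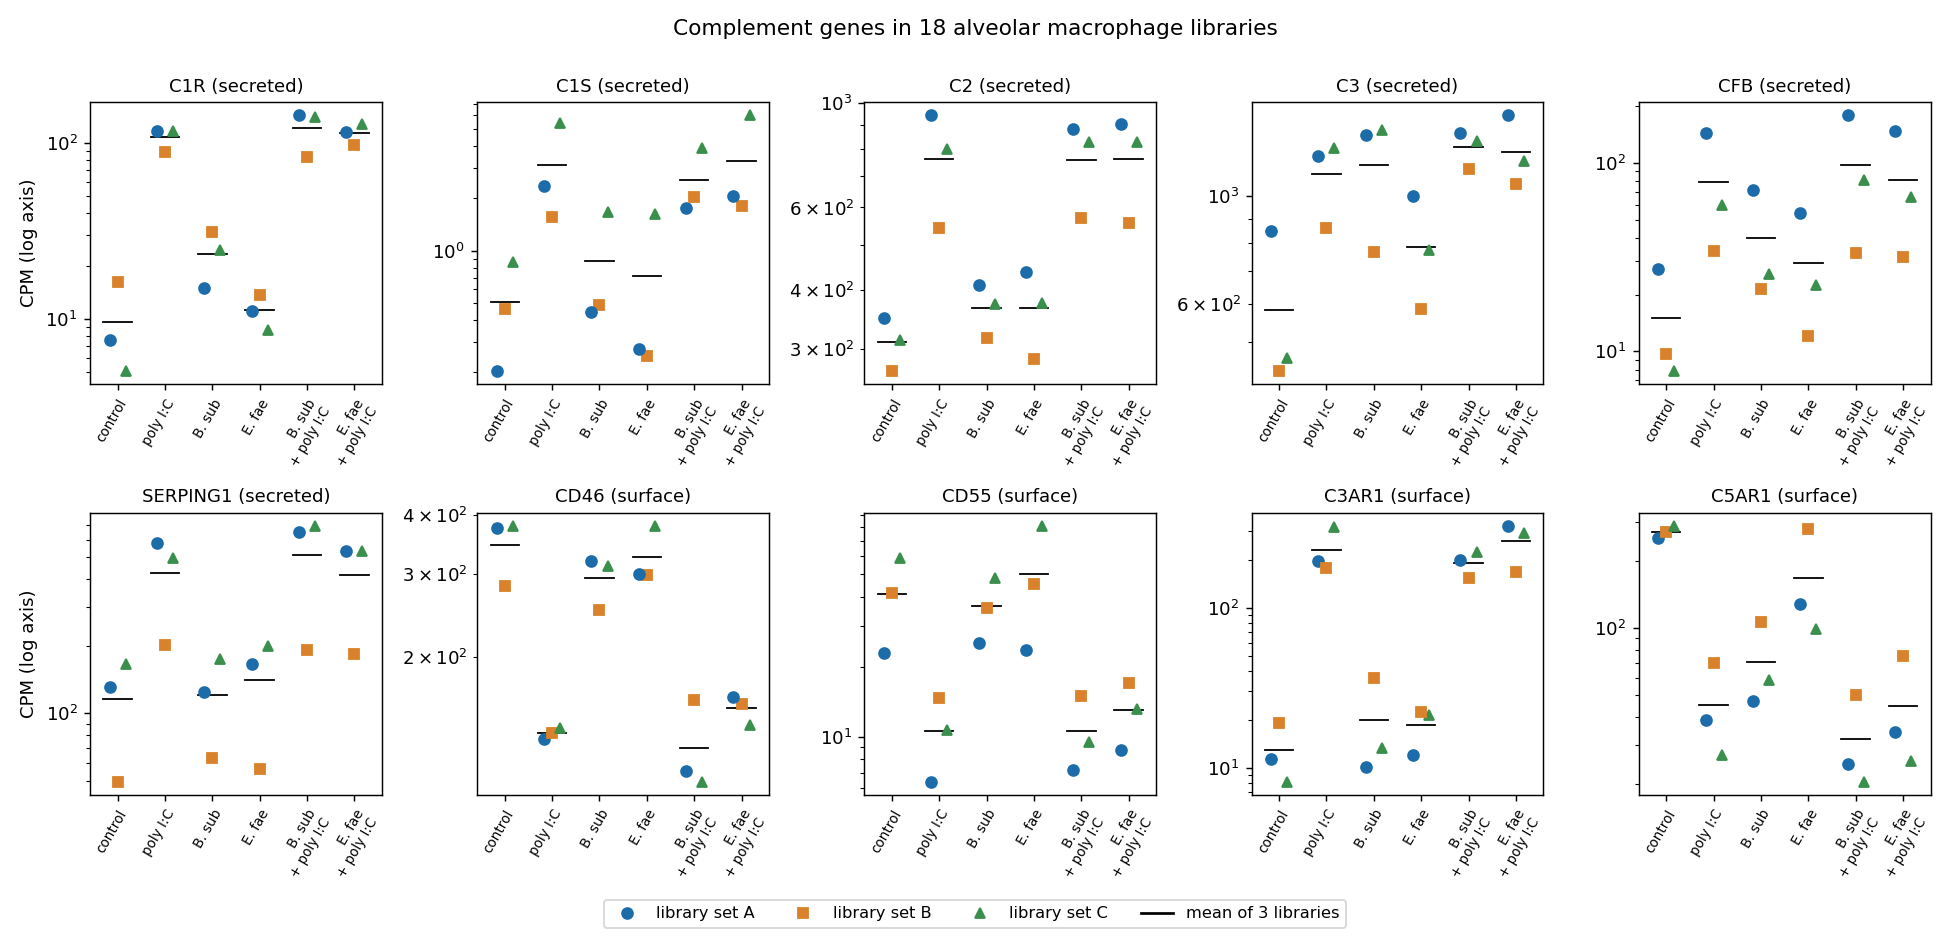
Level of each complement gene in CPM (log axis) in the 18 libraries, by treatment, with a symbol per library set and a bar at the mean of 3 libraries. Every poly I:C library lies above every control library for C1R, C1S, C2, C3, CFB, SERPING1 and C3AR1 and below every control library for CD46, CD55 and C5AR1, where 38.6% of all genes tested did not overlap.

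C1R, the protease that starts the classical pathway, stood at 7.54, 16.2 and 5.03 CPM in control and at 116, 88.9 and 117 CPM with poly I:C. Set B was the highest in control and the lowest with poly I:C, so that its rise was the smallest. The change was 3.49 log2 units (SE 0.4, n = 3; adjusted p = 4.15e-05), an 11.2-fold rise. C1S, which C1R activates, was a rare transcript, at 0.203, 0.463 and 0.864 CPM in control (7, 12 and 28 counts) and 2.35, 1.57 and 5.43 CPM with poly I:C (35, 29 and 111 counts). Set C held the highest level in all 6 treatments. C1S rose by 2.6 log2 units (SE 0.83; adjusted p = 0.0338), a call that was lost without control replicate 1 (adjusted p = 0.127), control replicate 2 (0.0916) or poly I:C replicate 3 (0.15). C1R and C1S are neighbours on chromosome 5 of Sscrofa11.1 (63644097 to 63655149 and 63670309 to 63681466), 15159 bases apart.

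C2, the substrate of C1S that becomes the protease of the classical C3 convertase, stood at 349, 269 and 314 CPM in control and 943, 543 and 799 CPM with poly I:C. It rose by 1.29 log2 units (SE 0.26; adjusted p = 0.00244), and set A was the highest and set B the lowest in all 6 treatments. CFB, its counterpart in the alternative pathway, stood at 27.3, 9.65 and 7.84 CPM in control and 144, 34.2 and 59.8 CPM with poly I:C. The groups did not overlap, but the control library of set A was close to the poly I:C library of set B. CFB rose by 2.41 log2 units (SE 0.81; adjusted p = 0.0443). The same change with the library sets as a block was 2.34 (SE 0.23; adjusted p = 2.58e-06), and the differences within sets A, B and C were 2.4, 1.81 and 2.92 log2 units. C2 and CFB lie 34 bases apart on chromosome 7 (24020590 to 24034042 and 24034077 to 24040523), and reads that run from one gene into the other cannot be told apart in these counts.

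C3, the protein on which the pathways meet, stood at 847, 436 and 464 CPM in control and at 1210, 861 and 1260 CPM with poly I:C. The groups barely separated, since the control library of set A was close to the poly I:C library of set B. C3 rose by 0.93 log2 units (SE 0.31; adjusted p = 0.0388), the smallest rise among the secreted members; its adjusted p was 0.0732 without a filter on low counts and 0.0762 with the compared groups alone. SERPING1, the inhibitor of C1R and C1S, stood at 131, 49.3 and 167 CPM in control and 578, 202 and 497 CPM with poly I:C. Set B was the lowest in all 6 treatments. SERPING1 rose by 1.88 log2 units (SE 0.64; adjusted p = 0.0468, and 1.04e-06 with the sets as a block), with differences of 2.14, 2.03 and 1.57 within the sets. The calls of C3, CFB and SERPING1 were lost without control replicate 2 (adjusted p = 0.143, 0.135 and 0.152), without control replicate 3 (0.149, 0.152 and 0.0628), without poly I:C replicate 1 (0.0998, 0.188 and 0.131) or without poly I:C replicate 3 (0.117, 0.0637 and 0.11). That of SERPING1 was lost too without control replicate 1 (0.103), B. subtilis replicate 3 (0.0577), E. faecium replicate 1 (0.0515) or 3 (0.0565), or E. faecium + poly I:C replicate 2 (0.0552) or 3 (0.0558). That of CFB was lost without B. subtilis replicate 2 (0.05), E. faecium replicate 1 (0.0536), B. subtilis + poly I:C replicate 3 (0.0506) or E. faecium + poly I:C replicate 2 (0.054), and that of C3 without the last of these (0.05).

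CD46, a cofactor for the cleavage of C3b and C4b on host cells, stood at 375, 283 and 378 CPM in control and at 134, 138 and 142 CPM with poly I:C. The poly I:C libraries lay within a narrow band, well below the lowest control. CD46 fell by 1.32 log2 units (SE 0.19; adjusted p = 0.000214). CD55, which takes C3 convertases apart, stood at 23, 41.5 and 58.7 CPM in control and 6.38, 14.6 and 10.7 CPM with poly I:C. Its groups were apart as well, and set A was the lowest in all 6 treatments. CD55 fell by 1.96 log2 units (SE 0.47; adjusted p = 0.00757). CD46 and CD55 lie on chromosome 9, at 135025439 to 135078910 and 67933069 to 67960380.

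C3AR1, the receptor of C3a (chromosome 5, 63088778 to 63098750), stood at 11.4, 19 and 8.15 CPM in control and 197, 176 and 319 CPM with poly I:C. It had the largest change of the 10 members, 4.17 log2 units (SE 0.5; adjusted p = 5.6e-05). C5AR1, the receptor of C5a through which phagocytes are drawn to inflamed sites (chromosome 6, 53097162 to 53111563), stood at 255, 271 and 288 CPM in control and 38.8, 69.6 and 26.8 CPM with poly I:C. The control libraries were close to each other, and those with poly I:C were further apart, with set B the least lowered. C5AR1 fell by 2.59 log2 units (SE 0.52; adjusted p = 0.0023). Neutrophils carry this receptor too, and of 6 neutrophil markers 3 were tested, CSF3R (21.1 to 110 CPM over all libraries), CXCR2 (2.86 to 49.6 CPM) and FUT4 (14.9 to 38.9 CPM). The list summed to 72.1 to 150 CPM in control and 53.3 to 83.7 CPM with poly I:C, and 1 of the 3 passed downward, as did 2 of the 3 with B. subtilis + poly I:C. Their part in the result was not tested, while MPO was at 0 counts and ELANE at most at 0.164 CPM in any library. For C1R, C3AR1 and C5AR1 the difference within set B was the smallest of the 3 sets, at 2.45, 3.2 and -1.96 log2 units against 3.93, 4.1 and -2.71 in set A and 4.52, 5.28 and -3.42 in set C. Whether the sets respond differently was not tested, with 1 library per set and treatment.

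**Figure D2:**
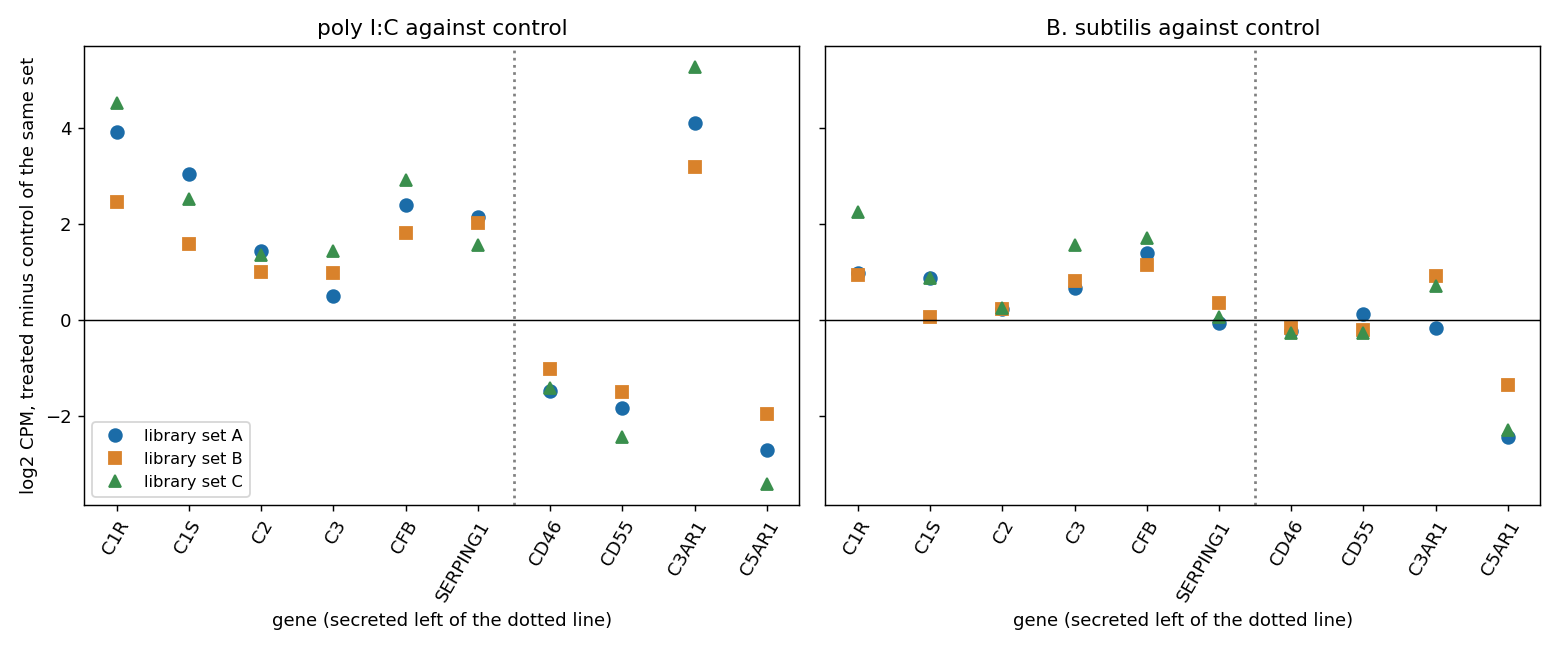
Difference in log2 CPM between the treated library and the control library of the same set, for poly I:C (left panel) and B. subtilis (right panel), with a symbol per library set. With poly I:C all 3 sets lie on the same side of 0 for each of the 10 genes. Any pairing would give this, since their poly I:C and control libraries do not overlap. With B. subtilis C5AR1 lies at -2.44, -1.35 and -2.29.

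Given alone, B. subtilis was set against control. C5AR1 was the 1 member that passed: it stood at 47, 106 and 58.6 CPM, below every control library, and fell by 1.94 log2 units (SE 0.51; adjusted p = 0.0422, and 7.33e-05 with the sets as a block), where 4.44% of all genes tested passed. That call was lost when any control library was left out (adjusted p = 0.0775 to 0.126), any B. subtilis library (0.0556 to 0.191), or poly I:C replicate 1, E. faecium replicate 3 or E. faecium + poly I:C replicate 3 (0.0522 to 0.0532), while its change stayed between -2.36 and -1.72. CD46 and CD55 had changes of -0.23 (95% interval -0.63 to 0.17) and -0.17 (-1.14 to 0.79), and C3AR1 one of 0.63 (-0.32 to 1.58). The summed monocyte and dendritic cell markers, mostly CD14, were at 1310 to 1550 CPM with B. subtilis, against 191 to 480 CPM in control, and their part in the results was not tested.

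Among the secreted members C3 stood at 1340, 766 and 1370 CPM with B. subtilis, with a change of 0.99 log2 units (SE 0.31; adjusted p = 0.0826). C1R stood at 15, 30.9 and 24.4 CPM, with a change of 1.29 (SE 0.37; adjusted p = 0.0618), and CFB at 72, 21.5 and 25.6 CPM, with a change of 1.41 (SE 0.79; adjusted p = 0.404). In each set all 3 exceeded the control library, and with the library sets as a block each passed (adjusted p = 0.0195 for C1R, 0.0019 for C3 and 0.000576 for CFB, where 18.4% of all genes passed). C2 had a change of 0.24 (95% interval -0.31 to 0.79) and SERPING1 one of 0.07 (-1.26 to 1.39). C3 with B. subtilis and with poly I:C differed by less than either SD (1160 ± 340 and 1110 ± 217 CPM), whereas C2 was at 367 ± 47.7 CPM against 762 ± 203 CPM.

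E. faecium against control gave no member past the threshold, and none at an unadjusted p under 0.05 with edgeR; DESeq2 also called 0 members. Over all genes edgeR called 0% here, with 278 genes at an unadjusted p under 0.05, and DESeq2 called 31 genes. The secreted members had changes of 0.22 to 0.98 log2 units with a median of 0.36, the highest being that of CFB at 53.9, 12.1 and 22.6 CPM (95% interval -0.69 to 2.64). C5AR1 stood at 128, 278 and 98.9 CPM: sets A and C were below the controls, at differences of -1 and -1.54 log2 units, and set B was level with its control at 0.04. Its overall change was -0.69 (95% interval -1.74 to 0.36).

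**Figure D3:**
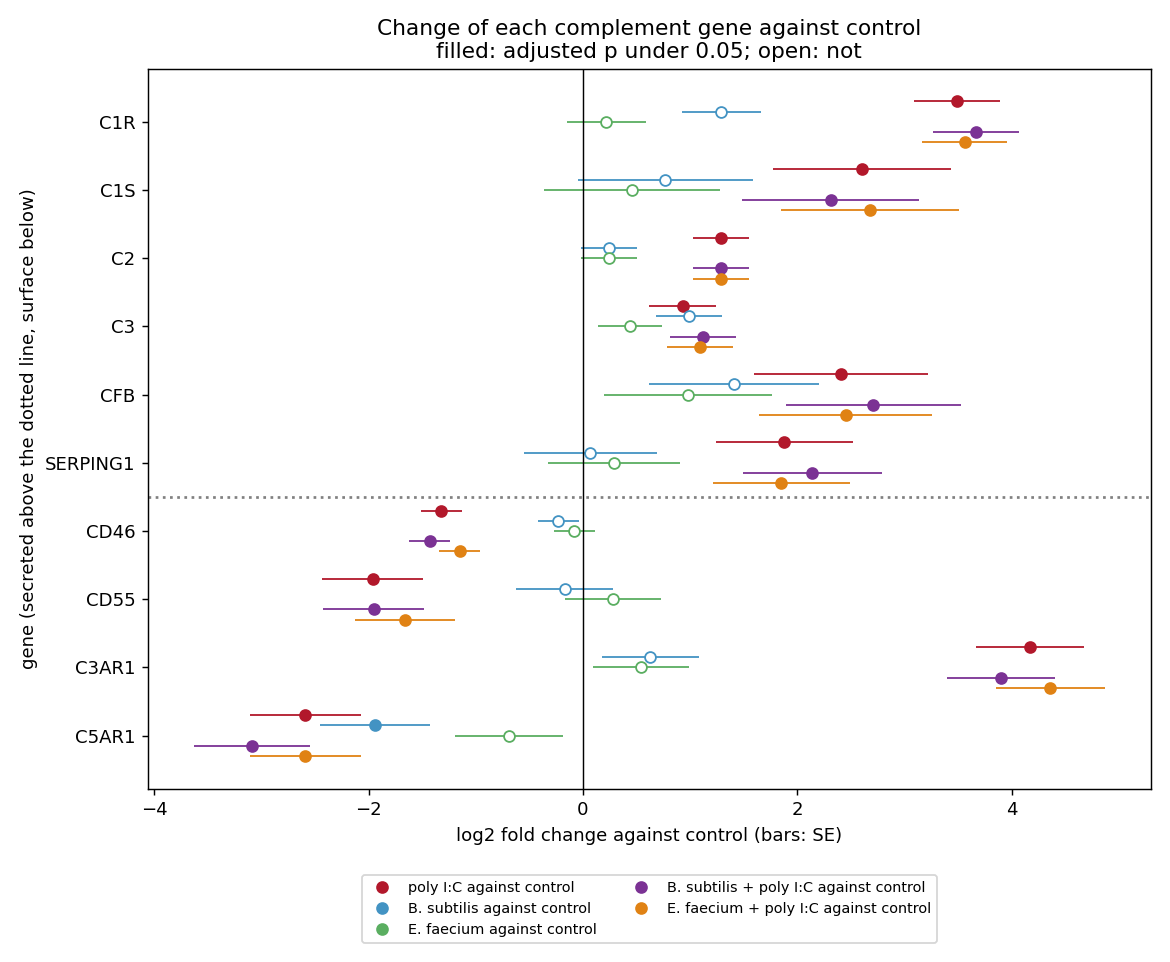
Log2 fold change against control of each complement gene (points, with SE) in the 5 treatments, filled where the adjusted p was under 0.05. The 3 treatments with poly I:C lie together for each gene, from -3.09 for C5AR1 to 4.36 for C3AR1, and with a bacterium alone C5AR1 with B. subtilis is the single filled point.

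The combined treatments carried the same split as poly I:C. Against control, all 6 secreted members and C3AR1 rose and CD46, CD55 and C5AR1 fell, both with B. subtilis + poly I:C, where 35.6% of all genes passed (19% upward and 16.6% downward), and with E. faecium + poly I:C, where 23.1% did (13.3% and 9.9%). These comparisons share their control libraries with that of poly I:C alone, so that they are no separate support. C1R reached 143, 82.9 and 139 CPM with B. subtilis + poly I:C and 115, 96.2 and 127 CPM with E. faecium + poly I:C. C3AR1 reached 199, 153 and 223 CPM and 325, 168 and 294 CPM, and C5AR1 24.5, 50.3 and 20.4 CPM and 34.3, 75.3 and 25.2 CPM in the same order. For C1S with B. subtilis + poly I:C, at 2.31 log2 units (SE 0.83; adjusted p = 0.0397), the call was lost with the pig numbers as a block (adjusted p = 0.0507). Leaving out single libraries took the number called to 7 with B. subtilis + poly I:C (without control replicate 2), and to 6 with E. faecium + poly I:C, where control replicates 2 and 3 and E. faecium + poly I:C replicates 2 and 3 each had this effect. The calls lost in these fits were those of C1S, C3, CFB and SERPING1 in both comparisons and that of CD55 with E. faecium + poly I:C (adjusted p = 0.0569 to 0.0874). The call of SERPING1 with E. faecium + poly I:C, at 1.85 log2 units (SE 0.64; adjusted p = 0.0486), held in 7 of 18 fits (0.0294 to 0.157). The calls of C1R, C2, CD46, C3AR1 and C5AR1 stood in all 18 of these fits in the 3 comparisons of poly I:C treatments with control. When a whole set was left out, those of C1R and C3AR1 alone stood throughout. Without set C that of C2 was lost in all 3 (adjusted p = 0.112, 0.091 and 0.111), and that of CD46 with E. faecium + poly I:C (0.075). That of C5AR1 was lost with poly I:C and with E. faecium + poly I:C, without set C (0.0709 in both) or set A (0.0601 and 0.0663).

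Whether a bacterium changed the response to poly I:C was asked by setting each combined treatment against poly I:C alone. No member passed in either comparison with edgeR or with DESeq2, none had an unadjusted p under 0.05, and over all genes edgeR called 0% in both, with 1423 and 38 genes at an unadjusted p under 0.05. DESeq2 called 2 genes over all with B. subtilis and 0 with E. faecium. The 0% with B. subtilis rested on 1 library: without B. subtilis + poly I:C replicate 2 edgeR called 2087 genes, again with 0 members. The changes of the members ran from -0.5 for C5AR1 to 0.3 for CFB with B. subtilis, and from -0.03 for SERPING1 to 0.3 for CD55 with E. faecium. The intervals set how much could have been missed: for C2 with B. subtilis it ran from -0.56 to 0.55 log2 units and for CD46 from -0.51 to 0.3, but for CFB from -1.34 to 1.94 and for C1S from -1.94 to 1.36. C5AR1 was lower with B. subtilis + poly I:C than with poly I:C in all 3 sets, with differences of -0.66, -0.47 and -0.39 log2 units and an adjusted p of 0.751 (0.223 with the sets as a block).

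Adding poly I:C to a bacterium moved 6 members in either case. With B. subtilis, C1R rose by 2.38 log2 units (SE 0.38; adjusted p = 0.000993), C2 by 1.05, SERPING1 by 2.08 and C3AR1 by 3.27, while CD46 fell by 1.19 and CD55 by 1.78, where 18.9% of all genes passed. The SERPING1 call was lost with the pig numbers as a block (adjusted p = 0.061). Without B. subtilis + poly I:C replicate 1 or 3 the number called was 3, and with only the B. subtilis and B. subtilis + poly I:C libraries in the fit it was 2. The libraries whose absence ended a call were all B. subtilis and B. subtilis + poly I:C ones: replicates 1, 2 and 3 of the former and 1 and 3 of the latter for SERPING1 (adjusted p = 0.0555 to 0.128), 2 of the former and 1 and 3 of the latter for CD55 (0.0708 to 0.0823), and 1 of the former and 1 and 3 of the latter for C2 (0.0539 to 0.0571). C3 hardly differed, at 1270 ± 109 against 1160 ± 340 CPM (0.13 log2 units, 95% interval -0.51 to 0.77). C5AR1, already low with B. subtilis, had a change of -1.15 (SE 0.5; adjusted p = 0.122), C1S of 1.54 (adjusted p = 0.195) and CFB of 1.3 (adjusted p = 0.262), and with the sets as a block these 3 passed (adjusted p = 0.00184, 0.00177 and 0.000653, where 41.4% of all genes passed).

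With E. faecium, C1R rose by 3.34 log2 units (SE 0.4; adjusted p = 0.000105), C2 by 1.05 and C3AR1 by 3.82, and CD46 fell by 1.07, CD55 by 1.94 and C5AR1 by 1.9, where 15.8% of all genes passed. The number called was 3 without E. faecium + poly I:C replicate 3, which ended the calls of C2, CD55 and C5AR1 (adjusted p = 0.0612, 0.0593 and 0.085). That of CD55 was lost as well without E. faecium replicate 1 (0.0548), that of C2 without E. faecium replicate 2 (0.0662), and that of C5AR1 without E. faecium replicate 2 (0.117) or E. faecium + poly I:C replicate 2 (0.0908). C1S, C3, CFB and SERPING1 did not pass (adjusted p = 0.0817, 0.171, 0.24 and 0.114), and all 4 did with the sets as a block (adjusted p = 0.000116, 0.012, 0.000129 and 6.88e-06, where 34.9% of all genes passed). DESeq2 called 8 members here, with C1S at an adjusted p of 0.0266 and SERPING1 at 0.0496 added. Over all genes DESeq2 called 2754 and edgeR 2153. With the compared groups alone the call of C5AR1 was lost (adjusted p = 0.054). For C5AR1 the differences within the sets were close to each other, at -1.9, -1.88 and -1.97 log2 units.

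The bacteria were compared with each other, and their interaction with poly I:C was tested as the change with poly I:C minus that without it. B. subtilis against E. faecium gave 0 members with edgeR, 2 at an unadjusted p under 0.05 and 0 with DESeq2, where 0.177% of all genes passed with edgeR. Those 2 were C1R, at 1.07 log2 units (adjusted p = 0.31), and C5AR1, at -1.26 (adjusted p = 0.437, and 0.00983 with the sets as a block, where 6.82% of all genes passed), which was lower with B. subtilis in all 3 sets. Under poly I:C the members differed between the bacteria by -0.5 to 0.29 log2 units, and 0 passed with edgeR or DESeq2 or had an unadjusted p under 0.05, where over all genes edgeR called 0%, DESeq2 548 genes and the set block 1157. Without B. subtilis + poly I:C replicate 2 edgeR called 3316 genes. The interaction with B. subtilis passed for 0 members with edgeR and DESeq2, and C1R alone had an unadjusted p under 0.05, where edgeR called 0.0368% of all genes. For C5AR1 it was 1.44 log2 units (SE 0.7; adjusted p = 0.585), and 1.58 (SE 0.35; adjusted p = 0.0245) with the sets as a block, where 3.83% of all genes passed. In that fit B. subtilis + poly I:C lowered C5AR1 by less than the sum of its changes with either alone. The interaction with E. faecium passed for 0 members with edgeR or DESeq2 and had none at an unadjusted p under 0.05, with 0% of all genes called.

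**Figure D4:**
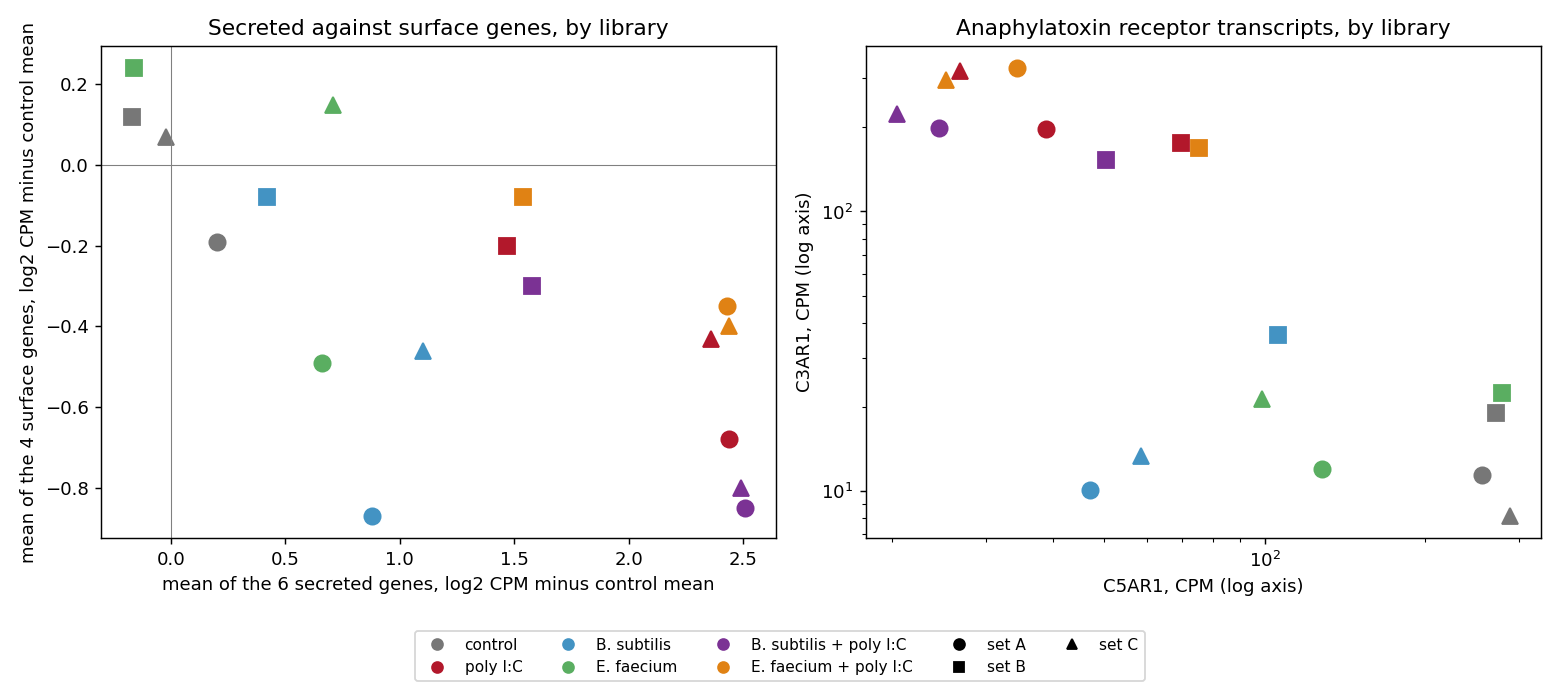
Left, mean log2 CPM of the 6 secreted and of the 4 surface genes in each library, each gene centred on its control mean; right, C5AR1 against C3AR1 in CPM (log axes), with a colour per treatment and a symbol per library set. The 9 libraries with poly I:C lie between 1.47 and 2.51 on the secreted axis, and the 9 without lie between -0.17 and 1.1.

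Secreted and surface members differed in how uniform they were. The mean of the secreted members, centred on control, lay at 2.44, 1.47 and 2.36 log2 units in the poly I:C libraries and at 0.88, 0.42 and 1.1 in the B. subtilis libraries. With E. faecium it lay at 0.66, -0.16 and 0.71. All 6 secreted genes contributed in the same direction with poly I:C, whereas the mean of the surface genes, at -0.68, -0.2 and -0.43 with poly I:C, set 3 lowered genes against C3AR1. Of the regulators among the members, the secreted one (SERPING1) rose with poly I:C and those on the cell surface (CD46 and CD55) fell. The regulators named next, outside the members, did not pass with edgeR. Of secreted ones C4BPA changed by -0.42 log2 units (adjusted p = 0.459), CLU by -0.21 (0.887) and VTN by -0.51 (0.475). Of surface ones CD59 changed by -0.53 (SE 1.39, adjusted p = 0.833) and CR1 by 0.29 (0.868).

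In order of their mean levels, the 3 treatments with poly I:C held the top ranks for C1R, C1S, C2, CFB, SERPING1 and C3AR1, and the bottom ranks for CD46, CD55 and C5AR1. Within those 3 treatments, neighbours in the order had overlapping ranges except for CD46, where E. faecium + poly I:C (144 to 165 CPM) lay above poly I:C (134 to 142 CPM). Over the 9 libraries with poly I:C and the 9 without it, C1R, C2, CD46, CD55 and C3AR1 did not overlap, 5 of 10 members, where 11.1% of all genes tested did not. For C1R the lowest, median and highest values were 82.9, 116 and 143 CPM with and 5.03, 13.7 and 30.9 CPM without poly I:C. For CD46 they were 109, 142 and 165 CPM with and 251, 312 and 379 CPM without it. C3 was the exception to the order: B. subtilis ranked above poly I:C. Neighbouring treatments overlapped at every step for C3, and likewise for CFB, SERPING1 and C5AR1.

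Of the spread of log2 CPM over the 18 libraries, measured as variance, 94.4% lay between treatments for C1R, 94.1% for C3AR1 and 93.3% for CD46, against a median of 48% over all genes tested. For these 3 genes at most 0.487% lay between the library sets. This share compares set means over all treatments, in which opposite differences cancel. For C1R and C3AR1 set B was the highest in 3 and the lowest in 3 of 6 treatments. The share between the sets was 43.1% for CFB, 38% for SERPING1 and 30.4% for C1S, against a median of 23.9%. CFB was highest in set A in 6 of 6 treatments, SERPING1 lowest in set B in 6 of 6, C3 lowest in set B in 6 of 6 and C5AR1 highest in set B in 5 of 6.

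Of 39 other complement genes listed, 26 were tested, and 13 were not in the table or too low. With poly I:C against control 3 of the 26 rose and 0 fell with edgeR, with a median of 0.04 log2 units, where 22.5% of all genes passed. Of the 26, 8 had an unadjusted p under 0.05, and DESeq2 called 3 upward and 1, MASP2, downward. With the sets as a block 5 passed upward and 4 downward, where 41.7% of all genes passed. MASP1, a protease of the lectin pathway, went from 0.414 ± 0.16 to 6.68 ± 3.93 CPM and rose by 4.01 log2 units (SE 0.75; adjusted p = 0.00141). C1RL, a relative of C1R, went from 8.21 ± 1.99 to 19.1 ± 2.49 CPM, a rise of 1.22 log2 units (adjusted p = 0.00318). The genes added by the set block were CFP (adjusted p = 0.000122) and COLEC11 (0.00152) upward and C5 (0.0361), C5AR2 (0.00726), MASP2 (0.0248) and COLEC12 (1.3e-05) downward. Without the block their adjusted p was 0.131, 0.145, 0.0888, 0.164, 0.0817 and 0.124.

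Of the chains of C1q, the recognition part to which C1R and C1S bind, C1QB rose by 1.16 log2 units with poly I:C (adjusted p = 0.0316), from 432 ± 25.9 to 968 ± 359 CPM. C1QC had a change of 0.41 (adjusted p = 0.325) and C1QA of 0.34 (adjusted p = 0.46). With B. subtilis + poly I:C against control 5 of the 26 rose and 2 fell with edgeR (6 and 3 with DESeq2, 10 and 6 with the sets as a block). Over all genes 35.6% passed with edgeR and 54.6% with that block. MASP1, C1RL, C1QB, C1QC by 0.86 (adjusted p = 0.0227) and CFP by 2.6 (adjusted p = 0.0221) rose. CFP, or properdin, stabilises the alternative convertase. C5AR2, the other C5a receptor, fell from 30, 89 and 63 counts to 2, 5 and 0 counts (2.08 ± 1.29 to 0.142 ± 0.127 CPM; adjusted p = 0.0225). The lectin pathway protease MASP2 fell from 27, 18 and 23 counts to 1, 0 and 0 counts (adjusted p = 0.00471). With E. faecium + poly I:C against control MASP1 and C1RL rose and 0 fell with edgeR, where 23.1% of all genes passed. Of the 26, 6 had an unadjusted p under 0.05. DESeq2 called C1QB too and, downward, C5AR2 and MASP2. With the sets as a block 5 passed upward and 5 downward, where 42.8% of all genes passed. With B. subtilis alone 0 of the 26 passed with edgeR, where 4.44% of all genes did. There 3 had an unadjusted p under 0.05 and DESeq2 called 1, CFP. With E. faecium alone all 3 of these counts were 0, and edgeR called 0% of all genes. CFP with B. subtilis alone had a change of 2.28 log2 units (adjusted p = 0.141, and 7.33e-05 with the sets as a block). COLEC11 upward (0.0156) and C5AR2 (0.00797) and COLEC12 (2.9e-05) downward also passed with that block, where 18.4% of all genes passed.

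**Figure D5:**
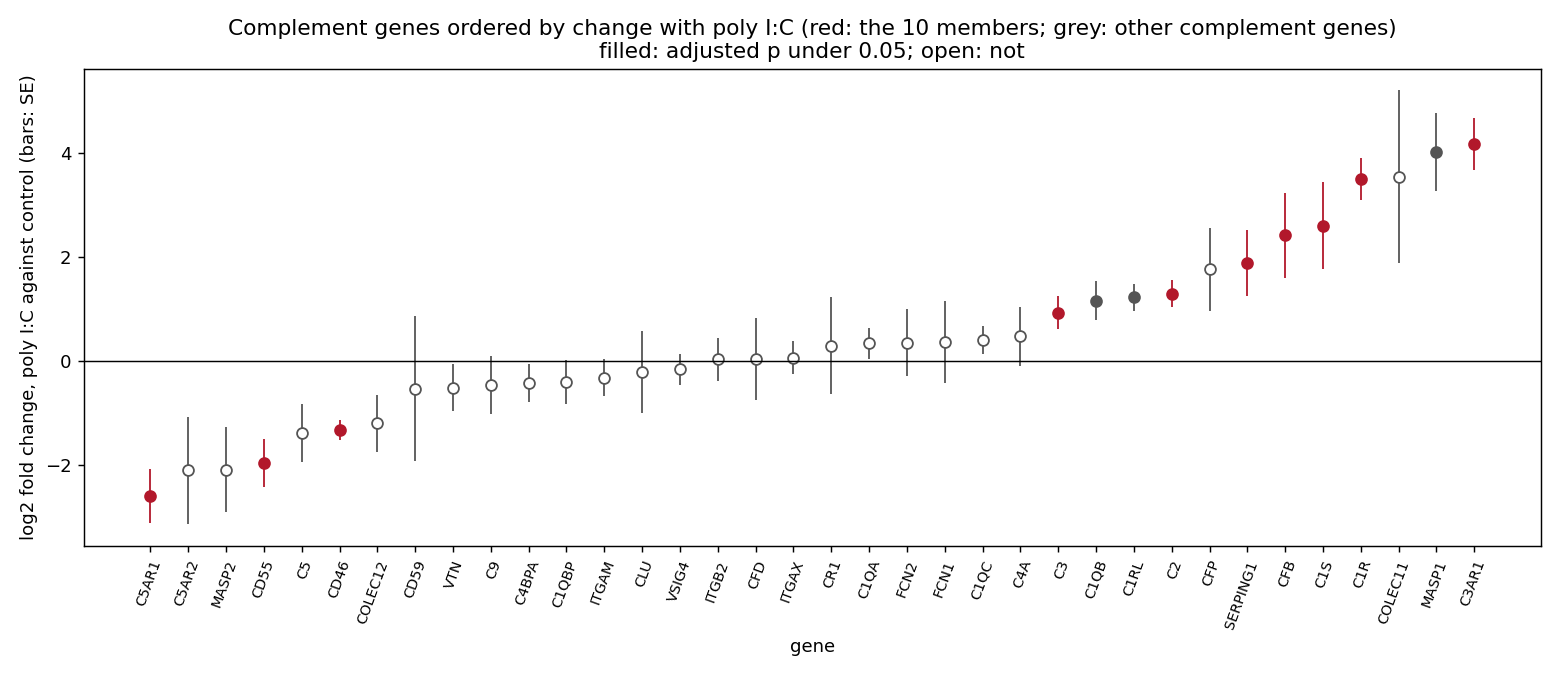
Log2 fold change with poly I:C against control (points, with SE) of the 10 members in red and the 26 other tested complement genes in grey, ordered by change and filled where the adjusted p was under 0.05. C3AR1 and MASP1, at 4.17 and 4.01 log2 units, stand at the upper end, C5AR1 at the lower end, and most of the grey genes are open points near 0.

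The genes whose profile over the 18 libraries was most like that of a member were found by the root mean square difference of log2 CPM, each gene centred on its mean. For C1R these were PARP11 (0.42 log2 units) and PLEKHA4 (0.45), where C1R itself had an SD of 1.71. For CD46 they were DGKD (0.12) and RPS6KC1 (0.14), with an SD of 0.65, and for C2 SHISA5 and SNX6 (both 0.18), with an SD of 0.64. For SERPING1 they were SLC25A47 (0.28) and BCL6B (0.29), for CFB AOAH (0.35) and ADM (0.49), for C3 CTNNA1 (0.2) and ELL (0.21) and for C1S FBXO39 (0.44) and UBD (0.49). For CD55 they were MEGF9 (0.3) and TMEM117 (0.32), for C3AR1 LOC780435 (0.42) and DYSF (0.44) and for C5AR1 DLGAP2 (0.37) and SLC25A13 (0.39). No member was among the 2 nearest genes of another.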

How the data were processed

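The authors deposited 1 table of counts of reads per gene, whole numbers with no normalization, for the 18 libraries; per the submitters' processing notes they used DESeq2 and the build Sscrofa11.1. The sources used here do not give the aligner, the counter, the strand setting, the doses or the bacterial strains. Gene positions are from the RefSeq gene table of Sscrofa11.1, which matched 30335 of the 30686 gene IDs. The other 351 genes have an ID but no name (0.515 to 1.04% of the counts) and were kept. Counts were tested in R 4.3.3 with edgeR 4.0.16 (TMM, filterByExpr with a minimum count of 10, quasi-likelihood test, a mean per treatment and no block, all 18 libraries in 1 fit). Two-sided p-values were adjusted over all 13592 genes (Benjamini-Hochberg); SE and 95% intervals come from the F value. The fit was tested on simulated counts drawn without differences between library sets or pigs, so that this test does not cover them. Log2 CPM used a prior count of 2. No sequence was used, and a planned description of promoter motifs was not made.

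The members and gene lists were chosen with earlier results of these data known. All 10 members are named in 13 comparisons, and of the other complement genes those past the threshold against control are named. C1QA, C5, COLEC11, COLEC12, C4BPA, CLU, VTN, CD59 and CR1 were added after their values were seen. A gene of that list was left out of all its counts and is not reported here. Nearest genes are the 2 with the lowest root mean square difference. Per the labels, equal numbers mark the same pig, but 17 of 45 pairs of the same number correlated by more than 0.1, against 45 of 45 pairs of a set. The sets came from a search of all 7776 groupings of 1 library per treatment for the highest mean correlation (0.615, next best 0.451, pig numbers 0.0225). High correlation within a set is thus favoured by the search. Apart from the labels, nothing says that the libraries came from separate cultures, so that p-values measure the spread between these libraries. Alternatives were DESeq2 1.42.0, its size factors, no filter, blocks by pig number or set, fits of the groups compared, and leaving out libraries or sets.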

Additional observations from a re-analysis of the deposited data

How the results depend on the processing

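Over 27 alternatives, 3 of them (leaving out a set) chosen after seeing the data, 0 of the members' called changes turned direction. The pig-number block gave 9 members for B. subtilis + poly I:C against control and 5 for B. subtilis + poly I:C against B. subtilis, and changed no other call. For B. subtilis against control the number called, 1, became 3 with DESeq2 and 4 with the set block, 2 without set B and 0 without set A or C. The set block also gave 10 for E. faecium + poly I:C against E. faecium, 1 for B. subtilis against E. faecium and 1 for the B. subtilis interaction. There 34.9%, 6.82% and 3.83% of all genes passed, and why the block changed the numbers was not tested. For B. subtilis + poly I:C against B. subtilis the 6 became 2 with the compared groups alone and 0 without set A or C. Over all genes, 2566 passed in the main fit, and 329, 114 and 92 in these. Without set C, 4 passed for poly I:C, 5 for B. subtilis + poly I:C and 3 for E. faecium + poly I:C against control. For E. faecium + poly I:C against E. faecium 3 passed. These fits hold 12 libraries. Over all genes they called 725, 1353, 795 and 605 in this order, against 3055, 4834, 3146 and 2153 in the main fit. Leaving out single libraries gave 6 to 10, 0 to 2, 7 to 10 and 6 to 10 members for poly I:C, B. subtilis, B. subtilis + poly I:C and E. faecium + poly I:C against control, 3 to 7 and 3 to 6 for poly I:C added to B. subtilis and to E. faecium, and 0 elsewhere. Over all genes, B. subtilis against control gave 604 genes, 1127 with DESeq2 and 2504 with the set block. It gave 685 without set B and 0 without set A or C. Poly I:C against control gave 3055, and 5668 with the set block. Low counts limit the precision of C1S, MASP1, MASP2, C5AR2 and COLEC11.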
